A study of Homo sapiens with 6 samples.

Results

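Transcripts of the subunits of oxidative phosphorylation were followed in A375 cells, a human melanoma line, after stable overexpression of HMGB2. The subunits were taken by gene symbol, as the protein-coding genes of GENCODE 44 whose names mark them as parts of the respiratory complexes I to IV or of the ATP synthase, which is called complex V. The rule gave 99 of 19708 protein-coding genes with an identifier in the count tables. Of these, 86 lie on nuclear chromosomes and 13 on the mitochondrial chromosome. Complex I had 37 nuclear and 7 mitochondrial members, complex II 4 nuclear members, complex III 9 and 1, complex IV 16 and 3, and complex V 20 and 2. NDUFA4 carries a complex I name but is a subunit of complex IV, and it was counted there. The rule also took read-through genes, the retrogene UQCRHL and ATP5IF1, the inhibitor of the ATP synthase, and it left out subunits with other names such as COX4I1, CYC1 and NDUFAB1.

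Both groups were A375 melanoma cells. In 3 libraries (EV1, EV2 and EV3) the cells carried an empty vector, and in the other 3 (OE1, OE2 and OE3) they overexpressed HMGB2, a chromatin protein that binds and bends DNA. The study made its stable lines by lentiviral transduction followed by selection with blasticidin or puromycin, and the promoter driving the HMGB2 construct of this line was not given in the sources used here. RNA was enriched through its poly(A) tails, and the study describes the 3 replicates of a condition as technical, so the errors and p-values measure only the spread between these samples, which may be technical, and not that between separate transductions. The comparison asks how transcript levels differ when HMGB2 is raised without any other treatment.

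Complex I oxidizes NADH and complex II oxidizes succinate, and both pass electrons to ubiquinone. Complex III hands them on to cytochrome c, and complex IV reduces oxygen to water. Complexes I, III and IV pump protons across the inner mitochondrial membrane, and complex V uses the gradient to make ATP. Complex II is built from nuclear genes alone, whereas the other complexes need both genomes. The mitochondrial messenger RNAs are cut from long transcripts of a small circular chromosome and most carry short poly(A) tails, while the nuclear genes each have a promoter of their own. Melanoma cells differ widely in their use of respiration, and PPARGC1A, a coactivator of respiratory genes, is known for marking melanomas with high oxidative phosphorylation.

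Between 45925053 and 56755212 reads were assigned to genes per library. HMGB2 had normalized counts, which are counts divided by a size factor for each library, of 7250.1, 7729 and 7562 in EV1 to EV3 and 15095, 16848 and 14609 in OE1 to OE3. Its log2 fold change was 1.05 ± 0.10, where the error of a log2 fold change is its SE here and throughout (Wald test of DESeq2 with Benjamini-Hochberg adjustment, adjusted p = 4.41e-22), and the groups did not overlap. Of the melanocyte and melanoma markers, MITF, S100B and PRAME were well detected, whereas MLANA, TYR and DCT were at or near 0. SOX10 was listed at 0, although it had reads in the columns counted by strand, all of which fell where another gene overlaps it. Of such reads, only 3.37% of those of PMEL and 1.82% of those of S100A1 were counted here. The EV means were 54.7 normalized counts for PMEL, 132 for S100A1 and 13.3 for TYRP1. No melanocyte marker was called by DESeq2 in this fit. The 4 leukocyte markers summed to at most 8.18 normalized counts in any library, with PTPRC at 0, and the 3 endothelial markers to between 80.6 and 109. The 4 fibroblast markers summed to 1988 to 3546 in EV and 3248 to 4339.7 in OE libraries, and the 4 epithelial markers to 958 to 1323 and 1061 to 1476. No gene of either list was called by DESeq2 in the fit of all 6 libraries by group alone. KRT5, an epithelial keratin singled out after its values were seen, had 5.05 and 11.5 normalized counts in EV1 and EV2 against 279 in EV3 and 199.9 to 289 in the OE libraries. EV3 thus went with the OE libraries in this gene and not with EV1 and EV2, the group its label gives, although its HMGB2 count lay between theirs. Whether EV3 differed in its cells or its handling was not tested, and counts of calls are given with and without it. OE3 had the largest share of reads mapping to several places, 10.6% against 2.58% to 4.89% in the other libraries.

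Of the 99 members, 96 had a count, 92 received an adjusted p and 91 had a mean of 10 or more normalized counts. COX6A2, COX8C and NDUFC2-KCTD14 were listed at 0. NDUFA7, COX7A1, ATP5MGL and ATP5MF-PTCD1 had too few counts for an adjusted p, and NDUFV2 was also under a mean of 10. On the scale of normalized counts per kilobase of the canonical transcript, the 13 mitochondrial genes ranged from 12261 for MT-ATP8 to 245107 for MT-CO1. The 78 nuclear members with a mean of 10 or more had a median of 3906, and the highest of them were UQCRH at 54641, a hinge protein of complex III, and ATP5F1B at 42734, the catalytic beta subunit of the ATP synthase. The level per kilobase depends on the transcript chosen, which is long for ATP5F1E (3610 bases) and COX7B (2444 bases).

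The nuclear subunits lay slightly higher with HMGB2 overexpression, but few of them passed the test. Of 92 members with an adjusted p, 2 were called higher (2.17%) and 0 lower at an adjusted p under 0.05, where 2.29% of all 18878 tested genes were called higher and 2.64% lower. The share of called members was close to that of all genes. At an unadjusted p under 0.05 there were 12 members higher and 0 lower with DESeq2, where 6.97% of all genes were higher and 7.29% lower. With edgeR there were 11 and 0, where the shares of all genes were 7.87% and 8.67%. The median log2 fold change of the 78 nuclear members was 0.16, with 64 above 0 and 14 below, against a median of -0.00098 over all 16692 genes with a mean of 10 or more, 8318 of which were above 0. By complex, the nuclear medians were 0.13 in complex I, 0.14 in complex II, 0.14 in complex III, 0.23 in complex IV and 0.17 in complex V. With single libraries left out these medians ranged over 0.046 to 0.26 in complex I, 0.073 to 0.29 in complex II, 0.038 to 0.23 in complex III, 0.13 to 0.34 in complex IV and 0.077 to 0.32 in complex V. Each was highest without EV3, and the lowest was without OE3 in complexes I, IV and V, without EV1 in complex II and without EV2 in complex III. The 13 mitochondrial genes had a median of 0.015, with 7 above 0 and 6 below. In bulk samples, fewer cells of a type and less RNA per cell cannot be told apart.

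**Figure D1:**
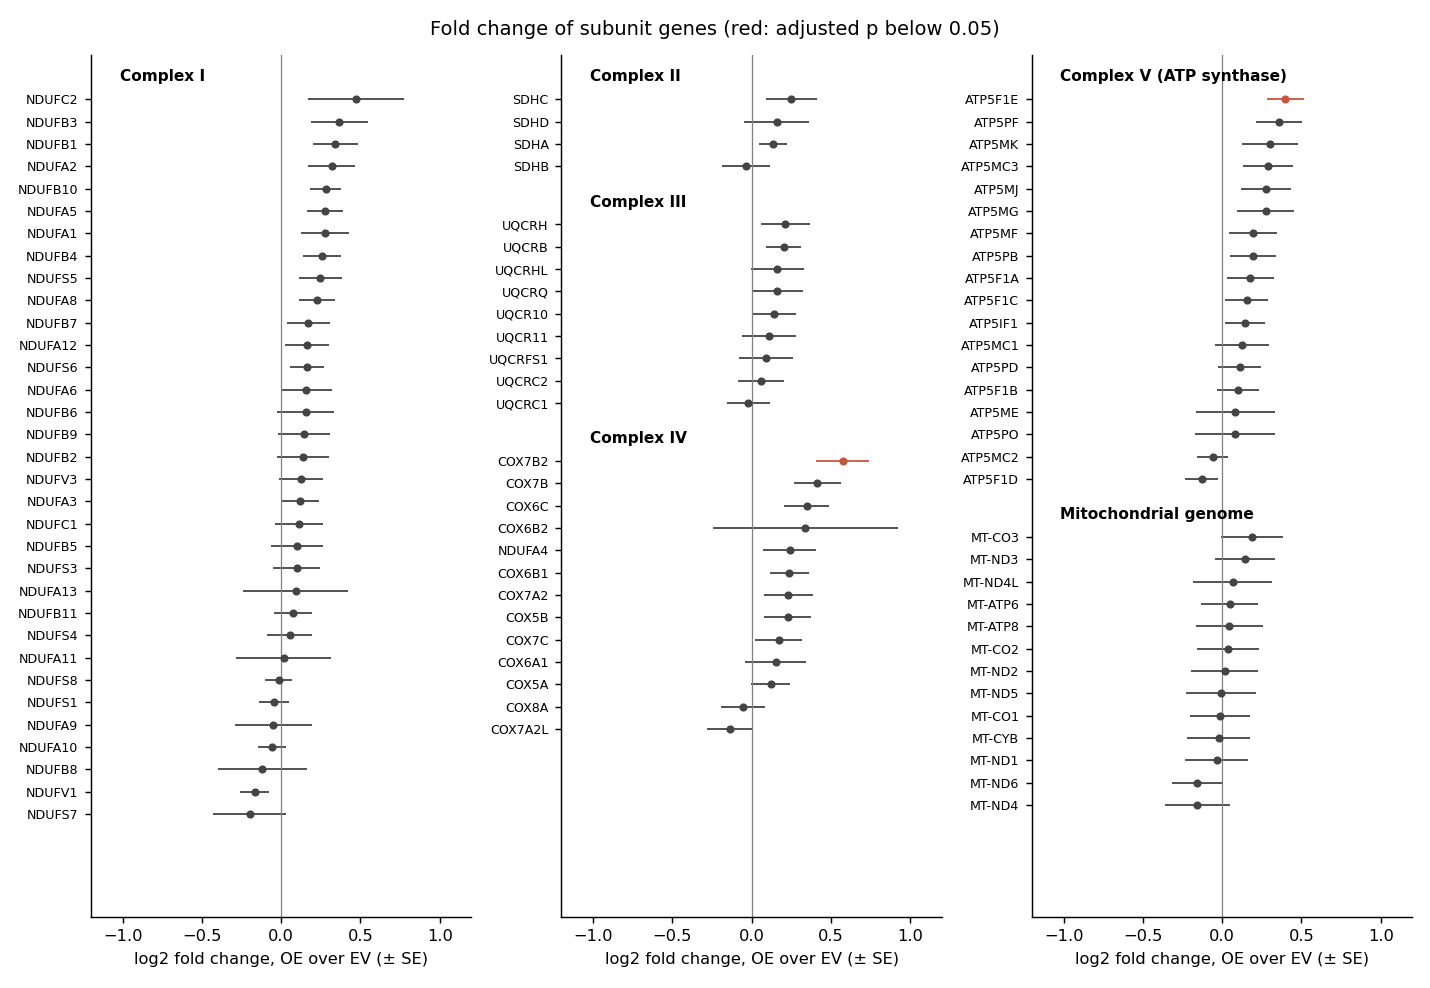
Log2 fold change of HMGB2 overexpression over empty vector for subunit genes with a mean of 10 or more normalized counts, with bars of 1 SE, grouped by complex and with the genes of the mitochondrial chromosome apart. Most nuclear genes lie to the right of 0, and the mitochondrial genes scatter around 0 with wide bars. Only ATP5F1E and COX7B2 (red) passed an adjusted p of 0.05 in the fit of all 6 libraries by group alone.

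In 13 of the 78 nuclear members all OE libraries were above all EV libraries (16.7%), and in 3 all were below (3.85%), where 11.4% of all genes with a mean of 10 or more were separated upwards and 11.4% downwards. The 13 were NDUFA5, NDUFA8, NDUFB1, NDUFB4, NDUFB10, NDUFS6, SDHA, UQCRB, COX6B1, COX7B, COX7B2, ATP5F1E and ATP5PF, and NDUFA10 and NDUFV1 were among the 3. None of the 13 mitochondrial genes was separated in either direction.

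The libraries of a group spread over a wider range than the groups differed. Relative to the mean of the EV libraries, the median log2 level of the 78 nuclear members was -0.11 in EV1, -0.11 in EV2 and 0.21 in EV3, and 0.093 in OE1, 0.071 in OE2 and 0.34 in OE3. EV3 thus lay above OE1 and OE2, and OE3 above all the others. The same median over all genes with a mean of 10 or more stayed between 0.00046 and 0.012 in every library. OE3 held the highest value of 53 of the 78 nuclear members and EV3 of 18, while EV1 held the lowest of 33 and EV2 of 30. All 86 nuclear members together made up 0.974%, 0.958% and 1.19% of the gene counts in EV1 to EV3 and 1.10%, 1.07% and 1.23% in OE1 to OE3.

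**Figure D2:**
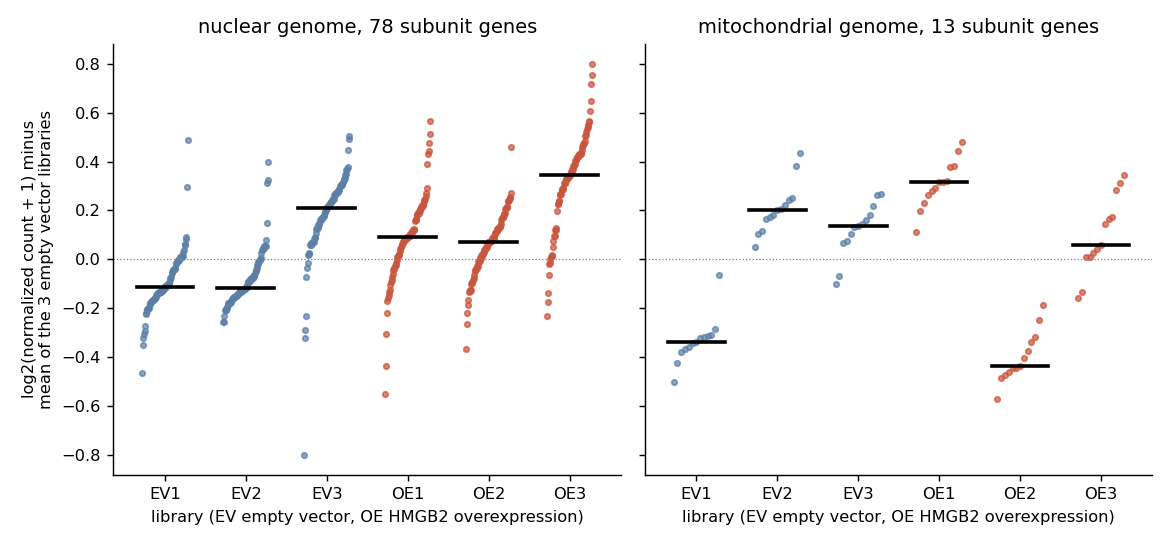
Log2 of the normalized count plus 1 of every subunit gene in each library, relative to its mean over the 3 empty vector libraries, with the median of a library as a black bar; nuclear genes are on the left and mitochondrial genes on the right. In the nuclear genes EV3 and OE3 stand above the other libraries of their groups, and in the mitochondrial genes EV1 and OE2 stand below the other 4 libraries.

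Without EV3, 36 of 91 members were called higher (39.6%) and 0 lower, all 36 of them nuclear, where 8.03% of all genes were called higher and 9.1% lower. In complex I 12 of 34 were called (NDUFA1, NDUFA2, NDUFA5, NDUFB1, NDUFB3, NDUFB4, NDUFB5, NDUFB6, NDUFB7, NDUFB9, NDUFB10 and NDUFS5), in complex II 2 of 4 (SDHC and SDHD) and in complex III 3 of 9 (UQCRFS1, UQCRH and UQCRQ). In complex IV 8 of 13 were called (NDUFA4, COX5B, COX6B1, COX6C, COX7A2, COX7B, COX7B2 and COX7C) and in complex V 11 of 18 (ATP5F1A, ATP5F1B, ATP5F1C, ATP5F1E, ATP5MC1, ATP5MC3, ATP5MG, ATP5MJ, ATP5MK, ATP5PB and ATP5PF). The nuclear median was then 0.28, in a fit that kept OE3, which held the highest value of 53 of the 78 nuclear members. With all 6 libraries and a term shared by EV3 and OE3, 30 of 90 members were called higher and 2 lower, against 8.74% and 8.68% of all genes, with a nuclear median of 0.16. With replicates 1 and 2 alone, a fit chosen after the data had been seen, the counts were 34 and 1 of 90, against 7.79% and 9.11%. The nuclear median of that fit was 0.20. In these 4 libraries, OE1 and OE2 were both above EV1 and EV2 in 53 of the 78 nuclear members (67.9%) and both below in 8 (10.3%), where 29.4% of all genes were separated upwards and 30.1% downwards.

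Leaving out any other library left at most 1 member called. Without EV1, EV2, OE1 or OE3 no member was called by DESeq2, and without OE2 ATP5F1E alone was. The nuclear median was 0.10 without EV1, 0.10 without EV2, 0.20 without OE1, 0.20 without OE2 and 0.072 without OE3. The edgeR quasi-likelihood test called 0 members in either direction, where it called 215 genes higher and 255 lower. The number of called subunits therefore rested on which libraries were fitted and, with all 6 libraries, on the model and its terms. It was highest without EV3. KRT5 in EV3 lay with the OE libraries and OE3 had the largest share of multimapped reads, and the part of either in these counts was not tested. KRT5 was itself called higher without EV3, with the term for the third replicates and with replicates 1 and 2 alone, as was COL1A1 of the fibroblast markers, while no other marker was called in these fits.

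The called members were ATP5F1E and COX7B2. ATP5F1E encodes the epsilon subunit of the F1 head of the ATP synthase. Its normalized counts were 8684, 9853 and 10179 in EV1 to EV3 and 12974, 11298 and 13557 in OE1 to OE3. Every OE library was above every EV library. The mean rose from 9572 ± 786 to 12609.8 ± 1173 (SD, n = 3 each), which on the log2 scale is a difference of 0.40 ± 0.12 (adjusted p = 0.0211, DESeq2). edgeR gave an adjusted p of 0.0891, and over 17 other settings the adjusted p ranged from 1.26e-06 to 0.345, with 12 of them under 0.05. Its transcript shares 32.2% of its 50-base words with other genes, namely TUBB1 and the pseudogene ATP5F1EP2. TUBB1 overlaps 23.2% of its exon bases on the opposite strand, and a read falling in both genes is counted for neither. Reads that fit several places were not counted either.

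COX7B2 encodes a paralogue of the small complex IV subunit COX7B. Its normalized counts were 239, 296 and 309 in EV1 to EV3 and 399.7, 385 and 473 in OE1 to OE3, again with no overlap. The mean rose from 281 ± 37.0 to 419 ± 46.9 (SD, n = 3 each), which on the log2 scale is a difference of 0.57 ± 0.17 (adjusted p = 0.0165, DESeq2). With edgeR the adjusted p was 0.0717, and the 17 other settings gave 0.000831 to 0.315, with 11 under 0.05. COX7B itself had 2255, 2578 and 2971 in EV1 to EV3 and 3594, 2981 and 3821 in OE1 to OE3. Its groups did not overlap either, although OE2 exceeded EV3 by little, and its log2 fold change was 0.41 ± 0.15 (adjusted p = 0.0792, DESeq2). Per kilobase, the mean level over all libraries was 1241 normalized counts for COX7B and 630.0 for COX7B2.

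**Figure D3:**
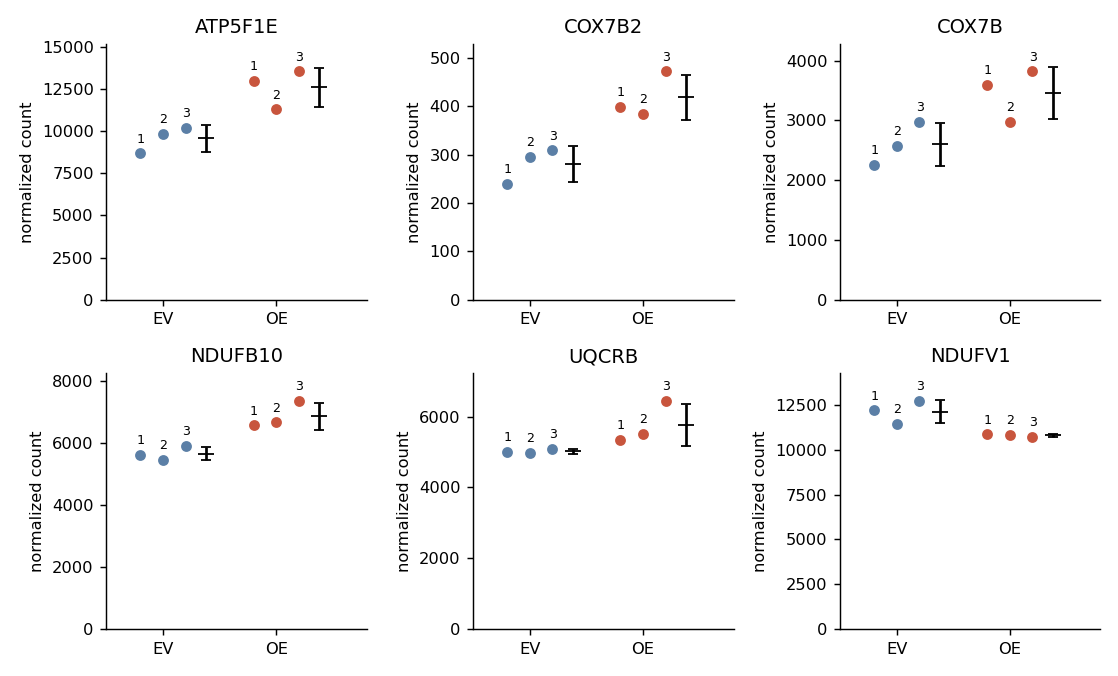
Normalized counts of 6 nuclear subunit genes in each library, numbered by replicate, with the mean and SD of the 3 libraries of a group beside the points; axes start at 0. ATP5F1E, COX7B2, COX7B, NDUFB10 and UQCRB were higher in all OE libraries than in any EV library, and NDUFV1 was lower in all of them.

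The 250 bases upstream of the start of these genes are shown because the called pair and COX7B differ in what lies there (RefSeq, GRCh38.p14, read 5′ to 3′ on the strand of the gene). Capitals mark matches, on either strand, to CCAAT, the letters that NF-Y binds, to GGGCGG, those of SP1, to TATAAA, those of TBP, and to AANATGGC, those of YY1. No match to GCGCANGCG, part of the NRF1 site, or to CCGGAAG, the core that ETS factors bind, lies in these windows. The ATP5F1E window (chr20:59032336-59032585, minus strand) is 74.8% GC, and those of COX7B2 (chr4:46909246-46909495, minus strand) and COX7B (chrX:77899218-77899467, plus strand) are both 43.2% GC.
ATP5F1E: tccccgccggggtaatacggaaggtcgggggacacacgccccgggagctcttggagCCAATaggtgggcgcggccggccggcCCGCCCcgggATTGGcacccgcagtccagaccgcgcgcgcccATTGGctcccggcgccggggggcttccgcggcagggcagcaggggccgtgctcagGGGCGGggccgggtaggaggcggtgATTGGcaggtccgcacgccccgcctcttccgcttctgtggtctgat
COX7B2: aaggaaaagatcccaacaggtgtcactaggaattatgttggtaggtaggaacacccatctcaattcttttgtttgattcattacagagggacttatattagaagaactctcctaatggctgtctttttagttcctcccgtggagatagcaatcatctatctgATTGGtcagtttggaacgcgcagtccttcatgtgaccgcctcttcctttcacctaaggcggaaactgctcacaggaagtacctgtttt
COX7B: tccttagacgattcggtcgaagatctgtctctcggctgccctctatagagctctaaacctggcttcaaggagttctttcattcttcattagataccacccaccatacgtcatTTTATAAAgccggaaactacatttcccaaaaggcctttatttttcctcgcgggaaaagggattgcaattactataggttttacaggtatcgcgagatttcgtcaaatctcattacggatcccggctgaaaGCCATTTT
The ATP5F1E window holds 4 CCAAT and 2 GGGCGG matches, that of COX7B2 holds a single CCAAT match, and that of COX7B holds 2 overlapping TATAAA matches and an AANATGGC match at its last bases.

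Promoters of 69 members were in the RefSeq table, each 300 bases long from 250 before to 50 after the start. GCGCANGCG occurred in 22 of the 69 (31.9%) and in 8.05% of 27305 promoters of all genes. CCGGAAG occurred in 27.5% against 10.7%, AANATGGC in 31.9% against 6.82%, and GGGCGG in 60.9% against 44.6%. CCAAT was in 36.2% of member promoters and 35.7% of all, and TATAAA in 10.1% and 12.0%. Medians of members with and without a match are given for each of the motifs, and the differences were not tested. Members with a GCGCANGCG match had a median log2 fold change of 0.13 (21 genes) and those without 0.16 (43 genes). For AANATGGC the medians were 0.095 (20 genes) and 0.16 (44 genes), and for TATAAA 0.32 (5 genes) and 0.15 (59 genes). For CCAAT they were 0.16 (24 genes) and 0.13 (40 genes), and for CCGGAAG 0.16 (19 genes) and 0.14 (45 genes). GGGCGG gave 0.14 (39 genes) and 0.16 (25 genes).

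In complex I the nuclear subunits split by role, a grouping made after the values had been seen. The core subunits hold the flavin and the iron-sulfur clusters that carry electrons, and the accessory subunits surround them. Of 6 core subunits with a mean of 10 or more, 1 had a log2 fold change above 0 and 5 below, with a median of -0.11. Of 28 accessory subunits, 25 were above 0 and 3 below, with a median of 0.16. No core or accessory subunit was called in the fit of all 6 libraries by group alone. At an unadjusted p under 0.05, 7 accessory subunits were higher with DESeq2 and 6 with edgeR, which called 0 as well. At this p, 6.97% of all genes were higher with DESeq2 and 7.87% with edgeR. The core transcripts were richer in GC than the accessory ones, with medians of 57.2% and 48.6%. With an offset for GC content and transcript length the medians were -0.10 and 0.14. Without EV3 they were -0.068 and 0.28, and without OE3 -0.12 and 0.084. Without EV1 they were -0.046 and 0.12. Without EV3, 12 of 28 accessory subunits and 0 of 6 core subunits were called higher, where 8.03% of all genes were called higher and 9.1% lower.

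NDUFV1, a core subunit that binds the flavin accepting electrons from NADH, had normalized counts of 12201, 11458 and 12746 in EV1 to EV3 and 10857, 10819.7 and 10733 in OE1 to OE3. All OE libraries were below all EV libraries, with a log2 fold change of -0.17 ± 0.091 (adjusted p = 0.399, DESeq2). With the term for the third replicates DESeq2 called it lower, with an adjusted p of 0.0355, and over all 17 other settings the adjusted p ranged from 0.0355 to 0.966. Some core subunits lay closer to 0, at log2 fold changes of -0.044 for NDUFS1, -0.017 for NDUFS8 and 0.10 for NDUFS3, and NDUFS7 is described with the overlapping genes.

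Among the accessory subunits of complex I, NDUFB10 of the membrane arm had normalized counts of 5607, 5462 and 5891 in EV1 to EV3 and 6563, 6659 and 7363 in OE1 to OE3. The groups did not overlap, and the log2 fold change was 0.28 ± 0.10 (adjusted p = 0.0795, DESeq2). NDUFB3, also of the membrane arm, had 1305, 1601 and 1947 in EV1 to EV3 and 1953, 1802 and 2502 in OE1 to OE3, so that EV3 lay within the range of the OE libraries, and a log2 fold change of 0.37 ± 0.18 (adjusted p = 0.315, DESeq2). NDUFC2 had the highest log2 fold change of complex I, 0.47 ± 0.30 (adjusted p = 0.534, DESeq2), on a mean of only 74.3 normalized counts. Of its exon bases, 18.6% lie also in the read-through gene NDUFC2-KCTD14, and a read falling in both is counted for neither.

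**Figure D4:**
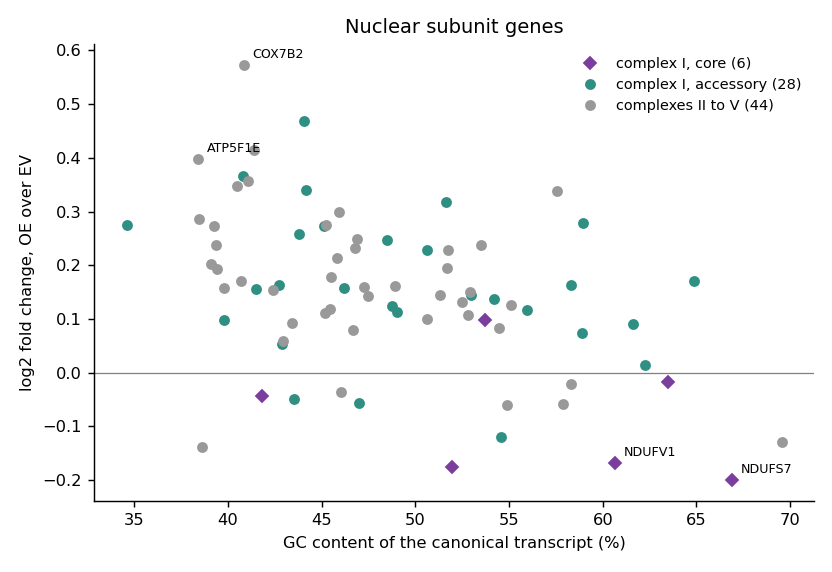
Log2 fold change against the GC content of the canonical transcript for the 78 nuclear subunit genes with a mean of 10 or more normalized counts, with the core subunits of complex I as diamonds. The 3 lowest points are core subunits, NDUFV1 and NDUFS7 among them, and ATP5F1E and COX7B2 lie among the transcripts of low GC content.

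Over the 78 nuclear members, Spearman's correlation of the log2 fold change with GC content was -0.44 and with transcript length -0.16. These are descriptions across genes that share the same 6 libraries. With the offset for GC and length, COX7B, NDUFB10 and ATP5PF joined ATP5F1E and COX7B2 as called higher, 5 of 92 members (5.43%) where 3.59% of all genes were called higher and 4.15% lower, and the nuclear median was 0.13.

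Complex II oxidizes succinate in the citric acid cycle as well as in the respiratory chain. SDHC, a membrane anchor, had normalized counts of 13324, 14144 and 19072 in EV1 to EV3 and 17894, 16350.3 and 21089.7 in OE1 to OE3. EV3 was above OE1 and OE2, and the log2 fold change was 0.25 ± 0.16 (adjusted p = 0.539, DESeq2). SDHD, the other anchor, stood at 0.16 ± 0.20 and SDHB, which carries the iron-sulfur clusters, at -0.036 ± 0.15. SDHA, which carries the flavin, had 7879, 7444 and 7858 in EV1 to EV3 and 8258, 8694 and 8453 in OE1 to OE3, without overlap between groups, and a log2 fold change of 0.13 ± 0.088 (adjusted p = 0.552, DESeq2). SDHA shares 73.6% of its 50-base words with transcripts of other genes, among them its pseudogene SDHAP3. Reads that fit several places were not counted, and how many reads of SDHA this removed was not tested.

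In complex III, UQCRH had normalized counts of 24488, 24542 and 32517 in EV1 to EV3 and 30149, 28116 and 36243 in OE1 to OE3, with EV3 within the OE range and a log2 fold change of 0.21 ± 0.15 (adjusted p = 0.609, DESeq2). UQCRB, which binds ubiquinone, had 5011, 4963 and 5090.2 in EV1 to EV3 and 5353, 5522 and 6453 in OE1 to OE3. Its EV libraries lay close together and below every OE library, and the log2 fold change was 0.20 ± 0.11 (adjusted p = 0.403, DESeq2). The large core proteins UQCRC1 and UQCRC2 were near 0, at -0.021 ± 0.13 and 0.059 ± 0.15. UQCRH and UQCRHL are near copies, and UQCRHL shares 53.7% of its words with UQCRH.

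Complex IV had the highest nuclear median of the 5 complexes. Beside COX7B2 and COX7B, its small subunit COX6C had normalized counts of 2429.5, 2855 and 3001 in EV1 to EV3 and 3603, 2994 and 3949 in OE1 to OE3. OE2 lay just below EV3, and the log2 fold change was 0.35 ± 0.14 (adjusted p = 0.170, DESeq2). COX7A2L, which joins complexes III and IV into supercomplexes, was the lowest, at -0.14 ± 0.14 (adjusted p = 0.775, DESeq2), with 13774, 12291 and 16832 in EV1 to EV3 and 12801, 11796 and 14367 in OE1 to OE3. Several complex IV subunits come as a widely expressed form and a form of muscle or testis. The widely expressed forms COX6A1, COX6B1, COX7A2 and COX8A had mean levels per kilobase of 1393, 18278, 20564 and 2524 normalized counts and log2 fold changes of 0.15, 0.24, 0.23 and -0.058. None of them was called in the fit of all 6 libraries by group alone. COX6B1 and COX7A2 were called higher without EV3 and with the term for the third replicates. The muscle form COX6A2 and the testis form COX8C were listed at 0. The muscle form COX7A1 had 0, 4 and 5 raw counts in EV1 to EV3 and 5, 7 and 2 in OE1 to OE3. The testis form COX6B2 had a mean of 14.7 normalized counts. COX7B2 was thus the only one of the 5 tissue forms with a mean over 100 normalized counts.

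In complex V, the F1 subunits ATP5F1A, ATP5F1B and ATP5F1C had log2 fold changes of 0.18 ± 0.15, 0.10 ± 0.13 and 0.15 ± 0.14. None of them was called in the fit of all 6 libraries by group alone, and all 3 were called higher without EV3. ATP5F1A and ATP5F1C were also called higher with the term for the third replicates. ATP5F1D, the delta subunit that sits beside the epsilon subunit in the central stalk, had normalized counts of 4078, 4197 and 3838 in EV1 to EV3 and 3704, 3935 and 3439 in OE1 to OE3 and was the lowest of the complex, at -0.13 ± 0.10 (adjusted p = 0.667, DESeq2). ATP5PF, coupling factor 6 of the stator, had 1534, 1512 and 1916 in EV1 to EV3 and 1969, 1962 and 2425 in OE1 to OE3. Its groups did not overlap, and its log2 fold change was 0.36 ± 0.15 (adjusted p = 0.170, DESeq2). Of the genes for the rotor ring, which all encode the same mature subunit c, ATP5MC2 stood at -0.060 ± 0.10, ATP5MC1 at 0.13 ± 0.17 and ATP5MC3 at 0.29 ± 0.16. None was called in the fit of all 6 libraries by group alone. ATP5MC1 and ATP5MC3 were called higher without EV3, and ATP5MC3 also with the term for the third replicates.

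The mitochondrial genes had their low values in the same libraries, 1 of each group. MT-CO1, the catalytic subunit of complex IV, had normalized counts of 300075, 403196 and 435779 in EV1 to EV3 and 454595, 283586 and 390503 in OE1 to OE3. MT-ND4 of complex I had 93032, 141863 and 127866 in EV1 to EV3 and 136382, 80166 and 108547 in OE1 to OE3. MT-CYB of complex III had 64863, 94350.5 and 89923 in EV1 to EV3 and 102368, 60542 and 82449 in OE1 to OE3. In each of the 3 genes EV1 and OE2 were low and the groups overlapped widely. All 13 genes had their lowest value in EV1 (5 genes) or OE2 (8 genes), and 8 had their highest in OE1. The highest library was between 1.50 times the lowest for MT-ATP6 and 1.97 times for MT-ND4L.

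Together the 13 genes took 1.66%, 2.34% and 2.30% of the gene counts in EV1 to EV3 and 2.58%, 1.60% and 2.15% in OE1 to OE3, a mean of 2.10% ± 0.382 against 2.11% ± 0.489 (SD, n = 3 each). The difference of 0.00798 percentage points was far inside the spread. Counts of mitochondrial genes per count of nuclear members were 1.70, 2.44 and 1.94 in EV1 to EV3 and 2.35, 1.50 and 1.75 in OE1 to OE3.

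**Figure D5:**
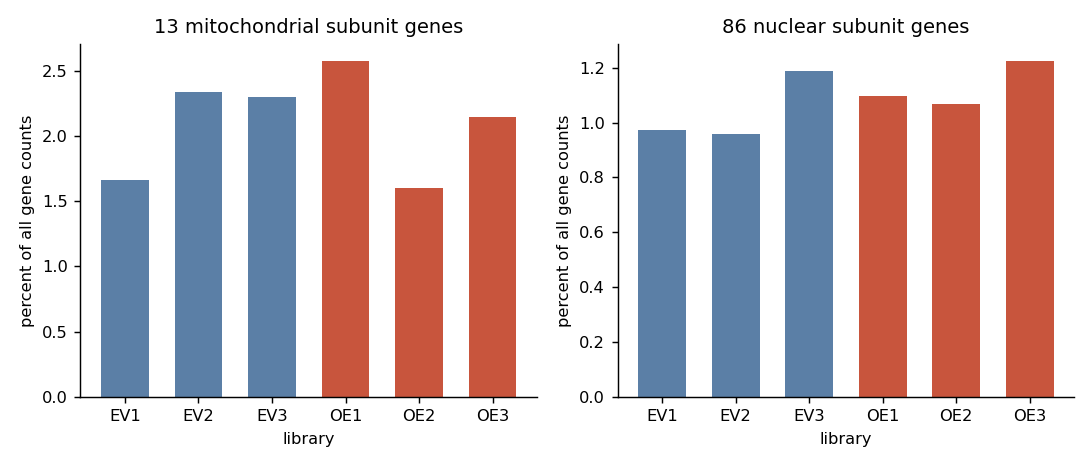
Percent of all gene counts of each library that fell on the 13 mitochondrial subunit genes (left) and on the 86 nuclear subunit genes (right), with bars from 0. The mitochondrial share was lowest in EV1 and OE2 and highest in OE1, and the nuclear share was highest in EV3 and OE3.

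No mitochondrial gene was called by DESeq2 or edgeR, and 0 had an unadjusted p under 0.05 with either. The lowest log2 fold changes were -0.16 ± 0.21 for MT-ND4 (95% interval -0.56 to 0.24; DESeq2 adjusted p = 0.839) and -0.16 ± 0.16 for MT-ND6, and the highest was 0.19 ± 0.20 for MT-CO3 (95% interval -0.20 to 0.58; DESeq2 adjusted p = 0.775). MT-CO1 stood at -0.013 (95% interval -0.39 to 0.36), MT-CO2 at 0.038, MT-CYB at -0.022, MT-ATP6 at 0.047 and MT-ATP8 at 0.046. Of the remaining complex I genes, MT-ND1, MT-ND2, MT-ND3, MT-ND4L and MT-ND5 lay between -0.036 and 0.14. Their SE had a median of 0.20, against 0.15 in the nuclear members. The median of the 13 changed sign with the libraries fitted, from -0.16 without OE1 and -0.15 without EV1 to 0.20 without OE2.

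Levels within the mitochondrial chromosome were uneven in both groups. Per kilobase, MT-CO1, MT-CO3 and MT-CO2 were highest, at 245107, 187520 and 133020 normalized counts over all libraries. MT-ATP8 was lowest, and MT-ND6, the only member read from the other strand, had 29916. MT-ND5 and MT-ND4L had similar levels, at 30296 and 30263. The messenger of MT-ND6 is known to lack a long poly(A) tail, and the libraries were made from poly(A) RNA. Whether this bore on the level of MT-ND6 was not tested. MT-ATP8 and MT-ATP6 share 46 bases on the same strand (chrM:8527-8572, plus strand, hg38), shown because a read lying there belongs to both genes and is counted for neither, and the capitals mark the start codon of MT-ATP6.
MT-ATP8 and MT-ATP6: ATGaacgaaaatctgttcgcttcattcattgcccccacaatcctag
These bases are a large part of MT-ATP8, which is 207 bases long, and a small part of MT-ATP6, which has 681. MT-ND4L and MT-ND4 likewise share 7 bases (chrM:10760-10766). MT-ND5 and MT-ND6 meet end to end on opposite strands, and 86.7% and 65.2% of their stranded reads were kept. Nuclear copies of mitochondrial DNA share 49.5% of the 50-base words of MT-CO1, 46.7% of MT-ATP6 and 43.6% of MT-ND2, and reads that fit both were not counted.

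For 9 nuclear members, under 50% of the reads of the stranded columns were kept in the column for either strand, because another gene overlaps them on the opposite strand. The kit does not mark strand, and between 50.1% and 50.2% of the reads counted by strand fell on the first strand in each library. The set-aside reads of a gene and of its antisense partner therefore cannot be told apart. The share kept was 0.0333% for ATP5MF-PTCD1, 3.40% for NDUFS7, 3.97% for ATP5ME, 14.0% for ATP5MG, 17.0% for NDUFB2, 20.0% for UQCRQ, 21.1% for NDUFA2, 27.8% for ATP5PF and 34.1% for NDUFB9. NDUFS7, a core subunit of complex I, had a log2 fold change of -0.20 ± 0.23 in the column for either strand and -0.22 ± 0.12 in the sum of the stranded columns (adjusted p by DESeq2 = 0.380), and over all 17 other settings its adjusted p was never under 0.287. In that sum its normalized counts were 5257, 4270.0 and 5226 in EV1 to EV3 and 4066, 4362 and 4205 in OE1 to OE3. EV2 lay within the range of the OE libraries there, and EV1 and EV3 above it. With the stranded sum the called members were again ATP5F1E and COX7B2 alone, of 94 with an adjusted p.

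Genes around the subunits were taken from hand-written lists, and few of them were called. Of all tested genes, DESeq2 called 2.29% higher and 2.64% lower, and the counts of the lists stand beside these shares. Of 10 further core subunits and carriers with an adjusted p, among them COX4I1, CYC1 and CYCS, with a median log2 fold change of 0.082, 0 were called higher and 1 lower. The called gene was NDUFA4L2, a paralogue of NDUFA4 that is known as a hypoxia-induced gene. Its normalized counts were 498, 553 and 258 in EV1 to EV3 and 217, 179 and 110.3 in OE1 to OE3, with no overlap, and its log2 fold change was -1.37 ± 0.30 (adjusted p = 0.000376, DESeq2). With edgeR the adjusted p was 0.0594, the highest of the 17 other settings, whose lowest was 6.74e-16. Of 59 assembly factors with an adjusted p, 0 were called higher and 2 lower, with a median log2 fold change of -0.0086 against 0.16 for the nuclear subunits. By complex, these medians ran from -0.040 for complex III to 0.0087 for the ATP synthase. At an unadjusted p under 0.05, 2 were higher and 4 lower with either tool. At this p, 6.97% of all genes were higher and 7.29% lower with DESeq2, and 7.87% and 8.67% with edgeR. COX19, a copper carrier for complex IV, had 492, 438 and 365 in EV1 to EV3 and 299.8, 316 and 269 in OE1 to OE3 and a log2 fold change of -0.55 ± 0.17 (adjusted p = 0.0239, DESeq2). COA8, also an assembly factor of complex IV, had 357, 298 and 349.9 in EV1 to EV3 and 249.8, 232 and 215 in OE1 to OE3 and -0.52 ± 0.16 (adjusted p = 0.0267, DESeq2). For both, all OE libraries were below all EV libraries, and edgeR gave adjusted p of 0.0755 and 0.0677. The adjusted p of COX19 ranged from 0.000794 to 0.402 over the 17 other settings and that of COA8 from 0.00783 to 0.371.

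Of 27 genes of mitochondrial DNA transcription and RNA handling, 0 were called in either direction by DESeq2 or edgeR, and their median log2 fold change was 0.029. At an unadjusted p under 0.05, 1 was lower with either tool, where 7.29% of all genes were lower with DESeq2 and 8.67% with edgeR. TFAM, which packages mitochondrial DNA and starts its transcription, stood at 0.084 ± 0.14. Of 12 regulators of respiratory genes 0 were called by DESeq2 or edgeR, with a median of -0.038. At an unadjusted p under 0.05, 1 was higher with either, where 6.97% of all genes were higher with DESeq2 and 7.87% with edgeR. NRF1 stood at 0.038 ± 0.12. PPARGC1A, singled out after its values were seen, had normalized counts of 13.1, 8.86 and 9.66 in EV1 to EV3 and 31.8, 17.7 and 31.5 in OE1 to OE3, without overlap, and a log2 fold change of 1.36 ± 0.51 (adjusted p = 0.116, DESeq2), while the 16 other settings that gave it an adjusted p ranged from 0.0658 to 0.608. Of 25 genes of the citric acid cycle and pyruvate dehydrogenase, 1 was called higher and 0 lower, against 2.29% and 2.64% of all genes. At an unadjusted p under 0.05, 2 were higher and 0 lower with either tool. The called gene was PDK4, a kinase that inhibits pyruvate dehydrogenase, with normalized counts of 2008, 2329.7 and 2231 in EV1 to EV3 and 2885, 2956 and 2978 in OE1 to OE3 and no overlap. Its log2 fold change was 0.42 ± 0.10 (adjusted p = 0.00210, DESeq2), and edgeR also called it (adjusted p = 0.0440), while the 17 settings ranged from 1.34e-06 to 0.154. Without EV3, 7 of 58 assembly factors were called higher and 2 lower, where 8.03% of all genes were called higher and 9.1% lower. In that fit 3 of the 27 genes of mitochondrial DNA transcription and RNA handling were called higher and 1 lower. Of the 12 regulators 0 were higher and 1 lower, and of the 25 citric acid cycle genes 3 and 0.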

How the data were processed

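Bulk poly(A) RNA of A375 cells was sequenced in 3 empty vector and 3 HMGB2 overexpression libraries. Per the labels, the authors used bcl2fastq 2.20, FastQC, Trimmomatic and STAR with GRCh38, and other versions were not given in the sources used here. They deposited raw counts per gene from STAR, in a column for either strand and 2 columns by strand. Reads mapping to several places or to more than 1 gene are not in the counts. The column for either strand was used, and the lines of unassigned reads were left out. Gene counts per library are given in the report. Gene identifiers were matched to GENCODE 44 (57532 of 58302), which also gave transcript lengths and GC content.

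Groups were compared with DESeq2 1.42.0 (R 4.3.3; Wald test, group only, Benjamini-Hochberg adjustment over all genes, called at an adjusted p under 0.05), as in the study's methods. The DESeq2 and edgeR fits by group were run on simulated counts with known changes. Those counts held no library effects shared between genes other than depth, so they cannot show how the fits behave under such effects. Alternatives were edgeR 4.0.16 (quasi-likelihood, TMM), TMM factors, a minimum of 10 counts in 3 libraries, no independent filter, size factors without mitochondrial genes, an offset for GC content and length (splines), the sum of the stranded columns, a replicate block with and without that offset, a term for the third replicates and leaving out each library. Replicates 1 and 2 alone were added after the data had been seen. Medians are over genes with a mean of 10 or more normalized counts. SD is between libraries, SE is from the fit, and 95% intervals are 1.96 SE.

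Members and lists were chosen with earlier results of these data known. Named were HMGB2, the 13 mitochondrial genes, called members, the 2 highest and 2 lowest nuclear members of each complex (mean of 50 or more), complex IV isoform pairs, members keeping under 50% of their stranded reads, those with a mean under 10, read-through members and called list genes. NDUFB10, COX6C, NDUFS1, NDUFS3, NDUFS8, NDUFV1, ATP5F1A, ATP5F1B, ATP5F1C, ATP5MC1, ATP5MC3, TFAM, NRF1, PPARGC1A, KRT5, COL1A1 and the members called without EV3 were added after their values had been seen. For 1 member the values are not reported here, and it is counted in the totals.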

Additional observations from a re-analysis of the deposited data

Results flagged for a closer look

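For 9 nuclear members, reads outside the column used here exceeded those inside it. The columns counted by strand held, over all 6 libraries, 58941 reads of ATP5MG, 56989 of NDUFB9, 43606 of UQCRQ, 30559 of NDUFB2, 29402 of ATP5PF, 26579 of NDUFS7, 22519 of NDUFA2, 18906 of ATP5ME and 5996 of ATP5MF-PTCD1 beyond the column for either strand. These reads are data that the comparison did not use. In the sum of the stranded columns, log2 fold changes were 0.15 ± 0.17 for ATP5MG, 0.18 ± 0.15 for NDUFB9, 0.23 ± 0.16 for UQCRQ, 0.19 ± 0.17 for NDUFB2, 0.36 ± 0.14 for ATP5PF, 0.29 ± 0.15 for NDUFA2 and 0.22 ± 0.14 for ATP5ME, with 0 of the 9 called by DESeq2.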

How the results depend on the processing

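HMGB2 was called higher under all 17 alternatives, with log2 fold changes of 0.98 to 1.09. The median log2 fold change of the nuclear members stayed above 0 under all 17, from 0.072 without OE3 to 0.28 without EV3, whereas that of the mitochondrial members ran from -0.16 to 0.20. The difference in mitochondrial share stayed between -0.23 and 0.26 percentage points. The number of members called higher, 2 with all libraries, was 5 with an offset for GC content and length, 0 with edgeR, 30 with a term for the third replicates and 34 with replicates 1 and 2 alone, and it ran from 0 to 36 when single libraries were left out. The number called lower, 0 with all libraries, was 2 with the term for the third replicates, 1 with replicates 1 and 2 alone and 0 in each fit that left out 1 library. A minimum of 10 counts in 3 libraries, TMM factors, no independent filter, size factors without mitochondrial genes and the stranded sum each called 2 higher and 0 lower.

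Libraries of the groups share replicate numbers. Deviations from the group means correlated at 0.0906 between EV1 and OE1, 0.142 between EV2 and OE2 and 0.349 between EV3 and OE3, and EV1 correlated more with OE2 (0.212), so the numbers were not taken as pairs. With the replicate block 24 members were called higher (26.7%) and 0 lower, where 5.90% of all genes were called higher and 6.23% lower. With the block and the GC and length offset the counts were 22 (24.4%) and 2, where the shares of all genes were 6.73% and 6.79%.

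Of 63 named genes with an adjusted p, 44 kept the sign of their log2 fold change throughout. The cause of the other changes was not tested. These 63 leave out COL1A1 and genes named only as markers, as examples, as separated members or as called without EV3. With the GC and length offset the reversed log2 fold changes were -0.022 for ATP5ME, -0.0013 for MT-ATP6, -0.19 for MT-ATP8, -0.019 for MT-ND2, -0.011 for MT-ND3, -0.090 for MT-ND4L, 0.030 for NDUFS8 and 0.028 for UQCRC1. With the block and this offset they were -0.034 for ATP5ME, -0.0024 for MT-ATP6, -0.19 for MT-ATP8, -0.0015 for MT-CO2, -0.027 for MT-ND2, -0.017 for MT-ND3, -0.084 for MT-ND4L, 0.031 for NDUFS8 and 0.035 for UQCRC1. With replicates 1 and 2 alone they were -0.0042 for ATP5ME, 0.011 for COX8A, 0.071 for MT-CO1, 0.035 for MT-CYB, 0.074 for SDHB and 0.034 for UQCRC1. Over the fits without 1 library, reversed genes ranged over -0.13 to 0.25 for ATP5ME, -0.17 to 0.043 for COX8A, -0.095 to 0.20 for MT-ATP6, -0.14 to 0.23 for MT-ATP8, -0.17 to 0.15 for MT-CO1, -0.15 to 0.20 for MT-CO2, -0.22 to 0.15 for MT-CYB, -0.22 to 0.15 for MT-ND1, -0.15 to 0.21 for MT-ND2, -0.0013 to 0.31 for MT-ND3, -0.36 to 0.016 for MT-ND4, -0.16 to 0.30 for MT-ND4L, -0.23 to 0.20 for MT-ND5, -0.38 to 0.10 for NDUFV2, -0.0054 to 0.10 for NRF1, -0.13 to 0.13 for SDHB, -0.10 to 0.11 for UQCRC1 and -0.026 to 0.21 for UQCRC2. Among these 63 genes, HMGB2 aside, edgeR lost the call of 5, and 20 more were called when EV3 was left out.

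Precision for a single gene was limited by the spread between libraries. In the fit of all 6 libraries by group alone, the median SE was 0.15 on the log2 scale for nuclear and 0.20 for mitochondrial members. A shift of the size of the nuclear median could not be called in most single genes of that fit. With the term for the third replicates, ATP5F1C had an SE of 0.057 and COX7C of 0.062, and both were called higher. MT-ND1 had an SE of 0.30 there and was not called.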
